A study of Mus musculus with 20 samples.

Results

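Expression of the interferon regulatory factors was followed in mouse splenic T effector cells that lacked or retained Pcbp2, an RNA-binding protein that recognises C-rich stretches, after or before antigen receptor stimulation. The family was represented by 8 genes, Irf1, Irf2, Irf3, Irf4, Irf5, Irf7, Irf8 and Irf9, picked by gene name from the 49315 gene rows of the count table and not by their values. RNA-seq libraries came from sorted CD4+CD25- cells of 2 genotypes, Fl-Pcbp2/CD4cre (CKO), in which Cre under the Cd4 promoter removes floxed Pcbp2 in T-lineage cells, and Fl-Pcbp2 littermates without the Cre, the controls (CTL). There were 3 CKO and 5 CTL libraries from cells held for 6 h with CD3/CD28 beads, and 6 CKO and 6 CTL libraries from unstimulated cells at 0 h, so that both genotypes carried the floxed allele. No library came from cells cultured for 6 h without beads, so culture and stimulation cannot be told apart. The age of the mice is not given in the sources used here. Cells outside the T lineage that stayed in the sort would be expected to keep Pcbp2, since the deletion follows Cd4.

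Interferon regulatory factors share an N-terminal DNA-binding domain that reads GAAA repeats in interferon-responsive promoters. Irf3, Irf5 and Irf7 are held in the cytoplasm until sensors of microbial nucleic acid activate them; Irf9 is the DNA-binding subunit of the ISGF3 complex that answers type I interferon; Irf1 and Irf2 bind the same sites as activator and competitor. In T cells, Irf4 is induced in proportion to antigen receptor signal strength and works with Batf and Jun proteins in effector differentiation, while Irf8, its closest relative, is best known from dendritic cells and B cells.

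Upstream sequences of the members were read from RefSeq promoter windows of build GRCm38.p6. Each window ran from 250 bases before the annotated start to 50 after it and was searched whole. The 250 bases before the start are shown for 4 members because they belong to the 3 genes that changed most after stimulation in CTL cells and to Irf2, the gene that pairs with Irf1. All 8 members matched the table, with 11 windows in all. Capitals mark matches to a GAS-type motif (TTCNNNGAA, the element of interferon gamma-responsive promoters), an ISRE-type motif (GAAA, any NN, then GAAA again, the element bound by ISGF3 and by these factors themselves) or the NF-kB consensus, searched on both strands.
Irf1, chr11:53769764-53770013, plus strand: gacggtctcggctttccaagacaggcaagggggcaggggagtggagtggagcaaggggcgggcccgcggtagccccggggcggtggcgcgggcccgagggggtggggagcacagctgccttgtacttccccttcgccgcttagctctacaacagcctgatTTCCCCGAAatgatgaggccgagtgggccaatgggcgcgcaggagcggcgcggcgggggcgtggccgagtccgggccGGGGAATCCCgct
Irf2, chr8:46739495-46739744, plus strand: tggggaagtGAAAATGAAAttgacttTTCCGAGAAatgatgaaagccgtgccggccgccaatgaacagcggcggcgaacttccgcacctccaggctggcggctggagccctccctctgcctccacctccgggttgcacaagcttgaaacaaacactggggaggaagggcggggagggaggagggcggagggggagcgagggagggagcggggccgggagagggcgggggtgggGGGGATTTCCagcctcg
Irf4, chr13:30748983-30749232, plus strand: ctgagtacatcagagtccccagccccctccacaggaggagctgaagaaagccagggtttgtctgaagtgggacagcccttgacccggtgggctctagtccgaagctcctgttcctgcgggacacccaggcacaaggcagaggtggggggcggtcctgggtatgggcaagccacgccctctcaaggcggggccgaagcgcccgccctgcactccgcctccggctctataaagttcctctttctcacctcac
Irf8, chr8:120736108-120736357, plus strand: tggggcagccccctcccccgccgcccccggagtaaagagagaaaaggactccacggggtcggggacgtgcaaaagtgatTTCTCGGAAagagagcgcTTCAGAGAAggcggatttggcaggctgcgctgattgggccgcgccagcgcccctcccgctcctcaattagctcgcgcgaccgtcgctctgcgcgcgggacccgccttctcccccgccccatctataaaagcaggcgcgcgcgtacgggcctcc
The Irf1 window held a GAS-type match that began 90 bases before the start and an NF-kB consensus match 13 bases before it. The Irf2 window held matches to all 3, the ISRE-type at 241 bases, the GAS-type at 224 bases and the NF-kB consensus at 17 bases before the start. In Irf8, a pair of GAS-type matches began 171 and 153 bases before the start, and the Irf4 window above held none of the 3. Among 32851 mouse promoter windows of 300 bases, 8.30% held the GAS-type motif, 3.44% the ISRE-type and 4.51% the NF-kB consensus. The windows of Irf3, Irf5 and Irf7 held none of these 3 motifs, and Irf9 held only a GAS-type match just after the start whose spacer was 1 base longer, which 6.95% of windows hold. The NFAT core GGAAA occurred in windows of Irf1, Irf2, Irf3, Irf4, Irf8 and Irf9, against 61.3% of all windows. It overlapped a GAS-type match in each of Irf1, Irf2 and Irf8 and the NF-kB match of Irf2, and in Irf4 it began at the start itself, outside the bases shown. These are matches of letters, and a window without a match says only that the letters are not in it.

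The deposited libraries held 26427467 to 85608113 counts each, and the shallowest, CTL 6 h library 4.24, also had the largest scaling factor, 1.37 against 0.861 to 1.10 in the other 19. Libraries are called by genotype, time and the number in their label. Levels are given as CPM, counts relative to the library's total after TMM scaling. Pcbp2 had 7.27, 7.59 and 11.3 CPM in the CKO 6 h libraries against 262 to 348 CPM at 6 h in CTL, and 13.1 to 22.1 CPM at 0 h in CKO against 261 to 396 CPM at 0 h in CTL, so every library fitted its genotype label. The CKO 0 h libraries 4.24 and 5.6 were labelled male but had 1160 and 1353 CPM of Xist, which is made from the inactive X chromosome. Fits without these libraries are given where they changed a member's call and beside the genotype differences of Irf3 and Irf5 at 0 h. Summed over 10 genes, T cell markers reached 3065 to 3453 CPM in CKO and 2289 to 3416 CPM in CTL libraries at 6 h, and 6224 to 7541 CPM in CKO and 5492 to 7125 CPM in CTL libraries at 0 h. No list of markers for other cell types was at 0 in any group. Dendritic cell, macrophage and B cell markers, whose cells use Irf5 and Irf8, were therefore set beside the results for those genes.

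Per kilobase of exon, the scale on which levels of different genes can be compared, the family had one order at rest and another after stimulation. At 6 h, Irf1 stood at 214 ± 13.5 CPM per kb in CKO (SD, n = 3) and 195 ± 35.8 in CTL (SD, n = 5), and Irf4 came next at 127 ± 70.7 in CKO and 143 ± 50.9 in CTL, with ranges that overlapped those of Irf1. At 0 h, Irf1 was also highest, at 87.2 ± 7.56 CPM per kb in CKO and 85.5 ± 9.73 in CTL (SD, n = 6 each), but Irf4 was the second lowest, at 11.7 ± 4.77 in CKO and 7.94 ± 1.42 in CTL. The order at 0 h was Irf1, Irf3, Irf9, Irf7, Irf2, Irf8, Irf4 and Irf5 in both genotypes. In it, the ranges of Irf1, Irf3 and Irf9 were separate from one another in both genotypes, while each neighbour from Irf9 down to Irf5 overlapped the next, except Irf7 and Irf2 in CTL. At 6 h the order below Irf4 was Irf3, Irf9 and Irf7 in both genotypes, then Irf2 and Irf8 in CKO but Irf8 and Irf2 in CTL, neighbours whose ranges overlapped. Irf5 was last in every group and, at 6 h, separate from the gene above it in both genotypes.

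**Figure D1:**
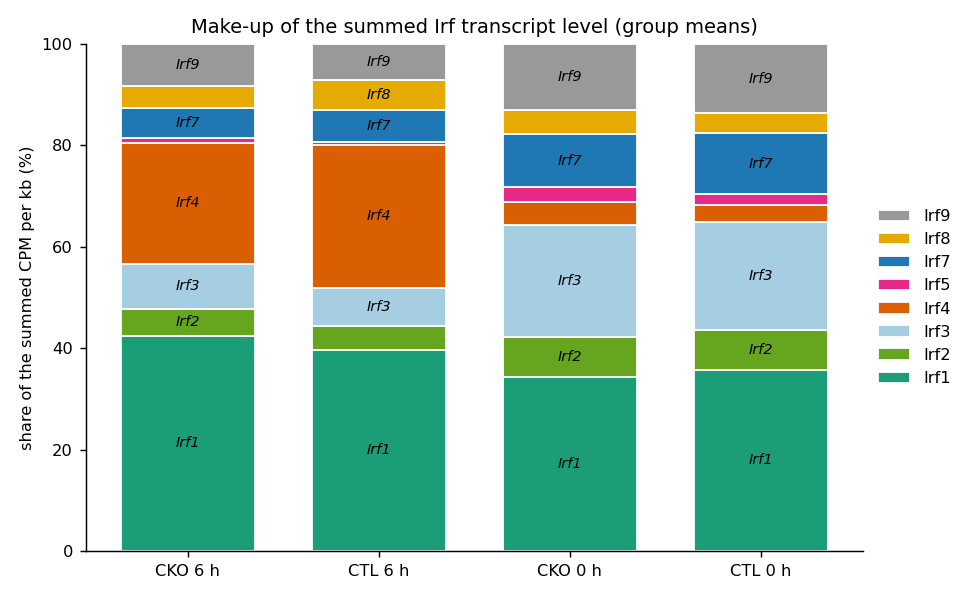
Mean share (%) of each of the 8 genes in their summed CPM per kb, for the CKO 6 h (n = 3), CTL 6 h (n = 5), CKO 0 h (n = 6) and CTL 0 h (n = 6) libraries. Irf4 made up 23.9% and 28.2% of the sum at 6 h in CKO and CTL, against 4.54% and 3.32% at 0 h.

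The summed level of the 8 genes was 512 ± 92.0 CPM per kb at 6 h in CKO (SD, n = 3) against 254.5 ± 16.0 at 0 h in CKO (SD, n = 6). In CTL it was 495 ± 87.9 at 6 h (SD, n = 5) against 238.8 ± 15.9 at 0 h (SD, n = 6). Irf4 took 23.9% ± 8.67 of the sum at 6 h in CKO against 4.54% ± 1.66 at 0 h, and in CTL 28.2% ± 6.87 at 6 h against 3.32% ± 0.508 at 0 h. The share of Irf3 moved the other way, to 8.86% ± 1.47 at 6 h in CKO against 22.2% ± 2.23 at 0 h, and in CTL to 7.49% ± 0.895 at 6 h against 21.2% ± 2.00 at 0 h. Irf1 over its competitor Irf2, as a ratio of levels per kb, was 8.13 ± 1.23 at 6 h in CKO against 4.35 ± 0.341 at 0 h, and in CTL 8.54 ± 0.783 at 6 h against 4.56 ± 0.359 at 0 h. Irf4 over Irf8 was 5.25 ± 0.208 at 6 h in CKO against 1.11 ± 0.706 at 0 h, and in CTL 4.79 ± 1.05 at 6 h against 1.10 ± 0.534 at 0 h. These make-up figures are descriptions, with n as above and no test.

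After 6 h with beads, Irf4, Irf1, Irf8 and Irf2 were higher and Irf3 and Irf5 lower in CTL cells, and Irf4, Irf1, Irf2 and Irf9 were higher and Irf5 lower in CKO cells. A gene was called where edgeR's quasi-likelihood test gave an adjusted p under 0.05 over the 28082 genes tested, all 8 members among them. In CKO, 5 of 8 members were called, 4 higher and 1 lower, where 32.8% of all genes tested were called, 19.6% higher and 13.1% lower. In CTL, 6 of 8 were called, 4 higher and 2 lower, where 63.4% of all genes were called, 41.6% higher and 21.7% lower. In CTL the members' share was near that of all genes, and whether it stood above it in CKO was not tested, so the sizes of the changes are given for each member. The median log2 fold change of the 14189 genes with a mean of at least 1 CPM was -0.12 in CKO and -0.20 in CTL, against 0.12 in CKO and 0.31 in CTL over all genes tested, so small changes depend on the scaling.

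**Figure D2:**
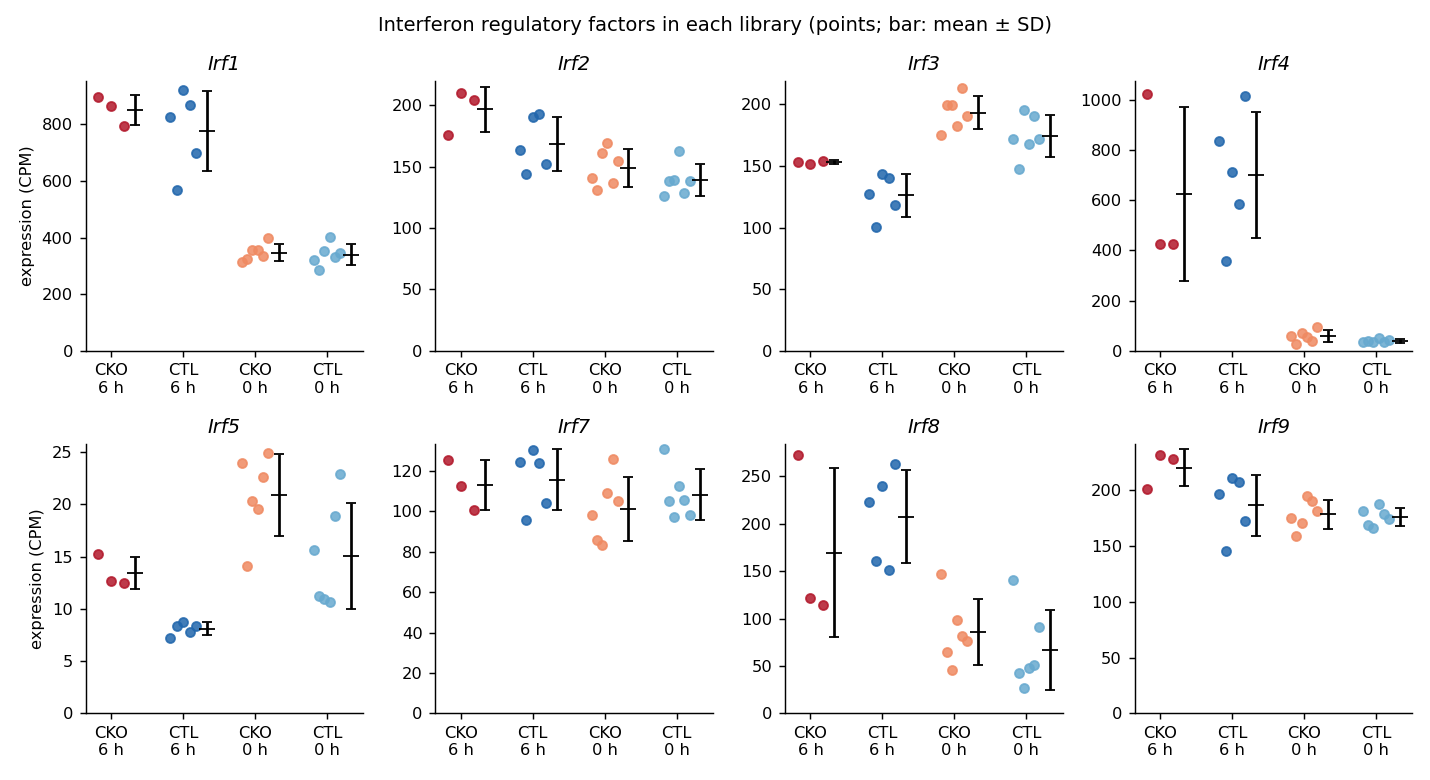
Expression (CPM, linear axes from 0) of the 8 genes in each library, with CKO 6 h (n = 3), CTL 6 h (n = 5), CKO 0 h (n = 6) and CTL 0 h (n = 6) from left to right; points are libraries and bars the mean ± SD. Irf4 lay between 356 and 1025 CPM in all 8 libraries at 6 h and between 27.6 and 93.6 CPM in all 12 at 0 h, and Irf8 was uneven within groups at both times.

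Irf4, the antigen-receptor-induced member, changed most. It had 1025, 425 and 424 CPM in CKO 6 h libraries 11.18, 5.13 and 5.6. At 0 h, CKO libraries ran from 27.6 to 93.6 CPM with a median of 56.7. Each library at 6 h was thus well above all at 0 h. In CTL it had 1014, 836, 712, 583 and 356 CPM in 6 h libraries 9.20, 10.28, 4.29, 5.13 and 4.24. The CTL range at 0 h was 33.5 to 50.7 CPM, with a median of 35.9. Libraries at 6 h were all above those at 0 h in both genotypes, where 47.0% of genes in CKO and 29.9% in CTL had groups that did not overlap. The log2 fold change was 3.55 ± 0.33 (SE) in CKO, an 11.7-fold difference, with an adjusted p of 2.25e-07, and 4.12 ± 0.31 in CTL, a 17.4-fold difference, with an adjusted p of 6.04e-09. Between libraries that shared a number, Irf4 was 7.74- to 17.5-fold higher at 6 h in 3 of 3 CKO pairs and 9.55- to 24.1-fold higher in 5 of 5 CTL pairs. CKO 6 h library 11.18 stood well above the other CKO 6 h libraries, and without it the CKO value was 3.03; the call remained in both genotypes in all 31 alternative fits.

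Levels of Irf4 at rest differed more among CKO libraries than among CTL libraries. The summed CPM of 6 regulatory T cell markers (Foxp3, Il2ra, Ikzf2, Tnfrsf4, Nrp1 and Gpr83) lay between 275 and 876 in CKO and between 214 and 403 in CTL at 0 h. In CKO, the library lowest in Irf4, 4.24 with 27.6 CPM, was also lowest in these markers with 275 CPM, and the libraries highest in Irf4, 9.20 with 93.6 CPM and 4.29 with 70.7 CPM, had 868 and 876 CPM of them. The CTL libraries at 0 h did not follow this order. Library 5.13 was highest in both, with 50.7 CPM of Irf4 and 403 CPM of the markers. Library 4.29 had the least Irf4, 33.5 CPM, with 396 CPM of the markers and the most Foxp3 in CTL, 64.2 CPM. At 6 h in CKO, library 11.18 had the most Irf4 and, at 977 CPM, the highest sum of these markers, against 590 and 713 CPM in 5.6 and 5.13, but the least Foxp3, the defining marker, at 93.4 CPM against 128 and 138 CPM. The sum includes Il2ra and Tnfrsf4, which stimulated T cells also make. Foxp3 ran from 36.7 CPM in 4.24 to 104 CPM in 4.29 among CKO libraries and from 32.7 to 64.2 CPM in CTL libraries at 0 h, in cells sorted as CD25-. At 6 h, Foxp3 was 37.4 to 62.3 CPM in CTL, below every CKO library. Of the 6 markers, edgeR called 2 higher in CKO than in CTL at 6 h and 1 at 0 h, where 0.292% and 0.424% of all genes were called. Foxp3 was called at 6 h (1.29 ± 0.27, adjusted p = 0.0488). Gpr83 was called at 6 h (1.35 ± 0.26, adjusted p = 0.0244) and at 0 h (1.18 ± 0.23, adjusted p = 0.0227). In bulk samples, more cells of a type and more RNA per cell cannot be told apart, and the part of these markers in the Irf4 levels was not tested.

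**Figure D3:**
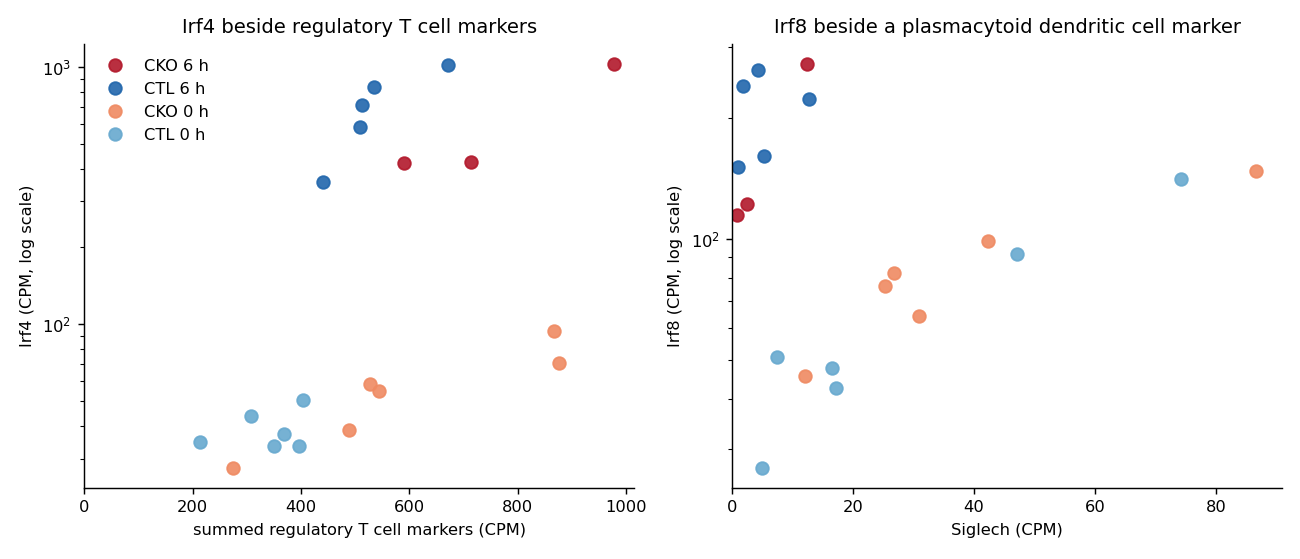
Left, Irf4 (CPM, log axis) against the summed CPM of 6 regulatory T cell markers; right, Irf8 (CPM, log axis) against Siglech (CPM), a plasmacytoid dendritic cell marker; each point is 1 of 20 libraries, coloured by group. At 0 h the CKO library with 868 CPM of regulatory T cell markers had 93.6 CPM of Irf4. The CTL library with 396 CPM of them at 0 h had 33.5 CPM of Irf4. The libraries with 86.7 and 74.3 CPM of Siglech at 0 h had 148 and 141 CPM of Irf8.

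Irf8, the relative of Irf4 that programs dendritic cell and B cell fates, was called higher at 6 h in CTL and not in CKO. CKO 6 h libraries 11.18, 5.13 and 5.6 had 272, 122 and 115 CPM. Before stimulation the CKO libraries had 45.6 to 148 CPM, with a median of 79.2. Library 11.18 at 0 h was above 5.13 and 5.6 at 6 h. CTL 6 h libraries 9.20, 4.29, 10.28, 4.24 and 5.13 had 263, 240, 223, 161 and 151 CPM. At 0 h, CTL libraries ran from 27.0 to 141 CPM with a median of 49.3. The CTL groups did not overlap. On the log2 scale the fold change was 0.98 ± 0.42 in CKO, which did not pass the test (adjusted p = 0.0788), and 1.64 ± 0.37 in CTL, 3.12-fold, which did (adjusted p = 8.72e-04). In CKO the call was gained when CTL 0 h library 4.29 or 10.28 or CKO 0 h library 11.18 was left out, with adjusted p of 0.0499, 0.0257 and 0.0378. By library number, Irf8 was 1.23- to 1.84-fold higher at 6 h in 3 of 3 CKO pairs and 1.59- to 8.89-fold higher in 5 of 5 CTL pairs.

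The libraries highest in Irf8 at rest were also highest in Siglech, a surface lectin of plasmacytoid dendritic cells, which need Irf8. At 0 h, CKO library 11.18 had 148 CPM of Irf8 and 86.7 CPM of Siglech, CTL library 10.28 had 141 and 74.3 CPM, and CTL library 4.29 was lowest with 27.0 and 5.01 CPM. At 6 h, Siglech was 0.889 to 12.3 CPM in CKO and 0.942 to 12.8 CPM in CTL libraries, so the higher Irf8 stood beside lower Siglech. The sum of 6 plasmacytoid dendritic cell markers was 55.3 to 99.3 CPM in CKO and 67.6 to 122 CPM in CTL at 6 h, against 87.6 to 261 CPM in CKO and 80.5 to 269 CPM in CTL at 0 h. The sum of 7 conventional dendritic cell markers was 20.1 to 31.5 CPM in CKO and 12.8 to 43.0 CPM in CTL at 6 h, against 40.1 to 146 CPM in CKO and 18.9 to 138 CPM in CTL at 0 h. The part of these markers in the levels of Irf8 was not tested.

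Irf1, the activator of interferon gamma-responsive genes, was higher at 6 h in every library. It had 898, 864 and 793 CPM in CKO 6 h libraries 11.18, 5.13 and 5.6. The CKO range at 0 h was 313 to 397 CPM, with a median of 344. The CKO groups were far apart. In CTL it had 922, 868, 826, 700.4 and 568.2 CPM in 6 h libraries 4.29, 5.13, 10.28, 9.20 and 4.24. Before stimulation the CTL libraries had 287 to 403 CPM, with a median of 338. The CTL groups were far apart too, and the lowest library at 6 h was 4.24, the shallowest. In log2 terms the fold change was 1.37 ± 0.12 in CKO, 2.58-fold, with an adjusted p of 2.02e-07, and 1.17 ± 0.11 in CTL, 2.25-fold, with an adjusted p of 8.53e-08; both calls held in all 31 alternatives. An opposite-strand gene model, Gm17334, shares 135 exonic bases with Irf1 and averaged 9.13 CPM over all libraries.

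Irf2, which binds the same sites as Irf1 and mostly represses, changed less than Irf1 did. CKO 6 h libraries 5.13, 5.6 and 11.18 had 210, 204 and 175 CPM. At 0 h, CKO libraries ran from 131 to 169 CPM with a median of 148. The CKO groups did not overlap. CTL 6 h libraries 5.13, 4.29, 10.28, 9.20 and 4.24 had 193, 190, 163, 152 and 144 CPM. The CTL range at 0 h was 126 to 163 CPM, with a median of 138. These groups overlapped. The log2 fold change was 0.45 ± 0.12 in CKO (adjusted p = 0.00685), which was 0.34 and not called without CKO 0 h libraries 4.24 and 5.6 (adjusted p = 0.0792). In CTL it was 0.27 ± 0.10 (adjusted p = 0.0230), and 0.16 and not called without the same libraries (adjusted p = 0.209). In an exact permutation test, adjusted over 32 such tests, the CTL change had an adjusted p of 0.0576. Both values were larger when only genes with a mean of at least 1 CPM were fitted. They were then 0.55 ± 0.10 in CKO (adjusted p = 2.76e-04) and 0.48 ± 0.08 in CTL (adjusted p = 8.01e-05). The CTL call ended in 10 of 31 alternatives. It did so, with values of 0.16 to 0.24 and adjusted p of 0.0523 to 0.207, when any 1 of CKO 0 h libraries 4.29, 5.6 and 9.20, CTL 0 h libraries 5.6 and 9.20, or CTL 6 h libraries 4.29 and 5.13 was left out.

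Irf3, which switches on interferon beta when phosphorylated downstream of nucleic acid sensors, was called lower at 6 h in CTL and missed the test in CKO. CKO 6 h libraries 5.6, 11.18 and 5.13 had 154, 153 and 152 CPM. Before stimulation the CKO libraries had 175 to 213 CPM, with a median of 195. No CKO library at 6 h reached the range at 0 h. CTL 6 h libraries 4.29, 5.13, 10.28, 9.20 and 4.24 had 144, 140, 127, 118 and 100 CPM. At 0 h, CTL libraries ran from 148 to 195 CPM with a median of 172. The CTL groups did not overlap either. The fitted log2 fold change was -0.30 ± 0.12 in CKO, which did not pass the test (adjusted p = 0.0535), and -0.48 ± 0.10 in CTL, which did (adjusted p = 2.87e-04), also in all 31 alternatives. A fit of only genes with a mean of at least 1 CPM gave -0.20 ± 0.10 in CKO (adjusted p = 0.127). In CTL that fit gave -0.27 ± 0.08 (adjusted p = 0.0104). The CKO value was called in 9 of 31 alternatives. These were limma-voom (adjusted p = 0.0487), no sex term (0.0257), sex read from Xist (0.0235), the replicate block without the sex term (0.0247), a fit of only the groups compared (0.0119), and the fits without CTL 0 h library 4.24 or 9.20 or CTL 6 h library 4.24 or 5.13 (0.0112 to 0.0491). In an exact permutation test of the CKO libraries alone the adjusted p was 0.0381 at the smallest p that 3 against 6 libraries allow, 0.0119. Bcl2l12, which shares 88 exonic bases with Irf3 on the opposite strand, was lower too, by a log2 fold change of -0.51 ± 0.11 in CKO and -0.68 ± 0.09 in CTL; whether counting used the strand is not given in the sources used here.

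Irf5, which drives inflammatory cytokine genes in macrophages and B cells, was the lowest member and was lower at 6 h. It had 15.2, 12.7 and 12.5 CPM in CKO 6 h libraries 11.18, 5.13 and 5.6. The CKO range at 0 h was 14.1 to 24.9 CPM, with a median of 21.5. Among them, only library 4.24 lay within the 6 h range. In CTL it had 8.75, 8.40, 8.39, 7.74 and 7.19 CPM in 6 h libraries 4.29, 4.24, 9.20, 5.13 and 10.28. Before stimulation the CTL libraries had 10.6 to 22.9 CPM, with a median of 13.4. The CTL groups did not overlap. As a log2 fold change this was -0.62 ± 0.23 in CKO (adjusted p = 0.0436) and -0.90 ± 0.19 in CTL (adjusted p = 4.83e-04). The CTL call held in all 31 alternatives. Exact permutation tests of Irf5 gave an adjusted p of 0.0879 in CKO and 0.0381 in CTL. The CKO call ended in 16 of 31, among them DESeq2 (adjusted p = 0.0547) and the fits without any 1 of CKO 0 h libraries 4.29, 5.13, 5.6, 9.20 and 11.18, CTL 0 h library 10.28, CTL 6 h libraries 4.29, 5.13 and 9.20, or each CKO 6 h library, with adjusted p of 0.0503 to 0.153. Markers of cells that use Irf5 moved with it. The sum of 10 macrophage and monocyte markers was 9.28 to 19.1 CPM in CKO and 9.06 to 33.3 CPM in CTL at 6 h, against 41.9 to 109 CPM in CKO and 39.2 to 106 CPM in CTL at 0 h. The sum of 12 B cell markers was 114 to 281 CPM in CKO and 89.2 to 136 CPM in CTL at 6 h, against 414 to 915 CPM in CKO and 522 to 952 CPM in CTL at 0 h. Their part in the lower Irf5 was not tested.

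Irf7, the amplifier of the type I interferon response, and Irf9, the DNA-binding subunit of ISGF3, stayed close to their resting levels. Irf7 had 125, 113 and 100.8 CPM in CKO 6 h libraries 11.18, 5.13 and 5.6. At 0 h, CKO libraries ran from 83.4 to 126 CPM with a median of 102. All CKO libraries at 6 h lay within the range at 0 h. Irf7 had 130, 125, 124, 104 and 95.6 CPM in CTL 6 h libraries 4.29, 10.28, 5.13, 9.20 and 4.24. The CTL range at 0 h was 97.3 to 131 CPM, with a median of 105. Neither change passed the test, with log2 fold changes of 0.16 ± 0.14 in CKO (adjusted p = 0.389) and 0.09 ± 0.12 in CTL (adjusted p = 0.512). For Irf9, CKO 6 h libraries 5.13, 5.6 and 11.18 had 231, 228 and 201 CPM. Before stimulation the CKO libraries had 159 to 194 CPM, with a median of 178. The CKO groups did not overlap. CTL 6 h libraries 4.29, 5.13, 10.28, 9.20 and 4.24 had 210, 207, 196, 173 and 145 CPM. At 0 h, CTL libraries ran from 166 to 188 CPM with a median of 176. The CTL libraries at 6 h thus fell on both sides of the range at rest.

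The change of Irf9 passed the test in CKO (0.32 ± 0.11, adjusted p = 0.0358) and not in CTL (0.07 ± 0.10, adjusted p = 0.509). The CKO call ended in 14 of 31 alternatives, among them the library number as a replicate block (0.26, adjusted p = 0.146) and the fit without CKO 0 h libraries 4.24 and 5.6 (0.27, adjusted p = 0.196). It also ended, with adjusted p of 0.0585 to 0.163, without any 1 of the CKO 0 h libraries 4.24, 4.29, 5.6, 9.20 and 11.18, the CTL 0 h libraries 5.6 and 9.20, or the CKO 6 h libraries 5.13 and 5.6. In CTL, both Irf7 and Irf9 changed sign with the processing, between -0.02 and 0.31 for Irf7 and between -0.03 and 0.29 for Irf9, and both were called higher when only genes with a mean of at least 1 CPM were fitted (adjusted p = 0.0185 for Irf7 and 0.00195 for Irf9). Irf9 shares 123 exonic bases with Rnf31 on the same strand and Irf7 shares 45 with Phrf1 on the opposite strand, so their counts can be split with these genes. Rnf31 changed by 0.44 ± 0.17 in CKO (adjusted p = 0.0557) and 0.004 ± 0.15 in CTL. Phrf1 changed by 0.23 ± 0.19 in CKO and -0.18 ± 0.16 in CTL. None of these changes passed the test, and the part of shared reads in the values of Irf9 and Irf7 was not tested.

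**Figure D4:**
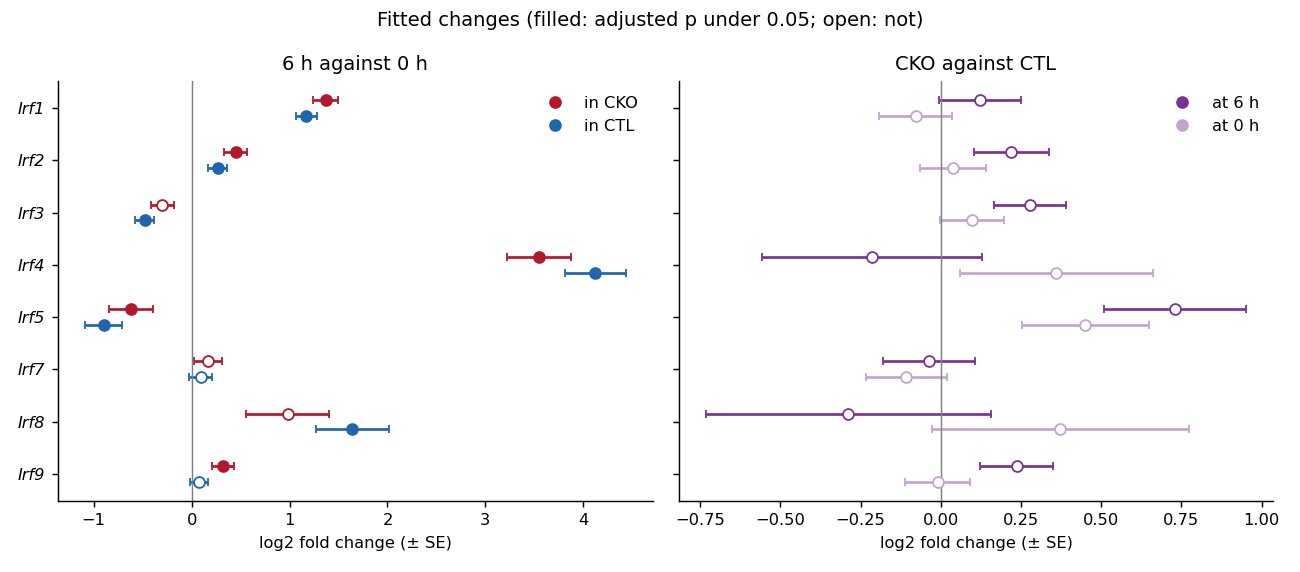
Fitted log2 fold changes ± SE of the 8 genes, at 6 h against 0 h in CKO and CTL (left) and in CKO against CTL at 6 h and 0 h (right); filled points have an adjusted p under 0.05 over all genes tested. Irf4 changed by 3.55 in CKO and 4.12 in CTL after stimulation, and no point in the right panel is filled.

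Loss of Pcbp2 left no member with a called change. At 6 h, 0 of 8 members were called in CKO against CTL, where 0.292% of all genes were called, and at 0 h again 0 of 8, where 0.424% of all genes were called. At an unadjusted p under 0.05 edgeR gave 2 of 8 members at 6 h, Irf3 and Irf5, where 12.7% of all genes were under it, and 1 of 8 at 0 h, Irf5, where 7.54% were. DESeq2 and limma-voom also called 0 members at either time. For the response itself, the change at 6 h in CKO minus that in CTL, 0 of 8 members were called by edgeR, where 0.0% of all genes were called, and 0 had an unadjusted p under 0.05, where 9.70% of all genes did; DESeq2 and limma-voom called 0 as well. The difference between the responses was -0.58 ± 0.45 for Irf4 and -0.66 ± 0.58 for Irf8, on the log2 scale, and lay between 0.07 and 0.28 for the other 6. Genes called in CTL only, such as Irf3 and Irf8, are therefore not shown to respond differently in CKO.

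Irf5 and Irf3 were the members with the most separation between genotypes. At 6 h, Irf5 had 15.2, 12.7 and 12.5 CPM in CKO against 7.19 to 8.75 CPM in the 5 CTL libraries, and Irf3 had 152 to 154 CPM in CKO against 100 to 144 CPM in CTL. Neither pair of groups overlapped, which 6.69% of all genes also showed at 6 h, 3.65% with CKO higher. The log2 fold changes were 0.73 ± 0.22 for Irf5 (adjusted p = 0.246) and 0.28 ± 0.11 for Irf3 (adjusted p = 0.370), and an exact permutation test of Irf5 gave the smallest p that 3 against 5 libraries allow, 0.0179, or 0.0521 adjusted over 32 such tests. At 0 h the groups of all 8 members overlapped, where those of 1.93% of all genes did not. Irf5 then averaged 20.9 ± 3.92 CPM in CKO and 15.04 ± 5.05 CPM in CTL (SD, n = 6 each), a log2 fold change of 0.45 ± 0.20 (adjusted p = 0.595). Among CKO and CTL libraries at 0 h that shared a number, 5 pairs in all, Irf5 was 1.09- to 1.86-fold and Irf3 1.02- to 1.35-fold higher in CKO in 5 of 5. Without CKO 0 h libraries 4.24 and 5.6 the difference at 0 h was 0.52 ± 0.22 for Irf5 and 0.03 ± 0.15 for Irf3.

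Irf5 shares 411 exonic bases with Tnpo3, a nuclear import factor on the opposite strand that averaged 124 CPM over all libraries. Tnpo3 had log2 fold changes of -0.07 ± 0.12 at 6 h and -0.18 ± 0.10 at 0 h in CKO against CTL, neither past the test. At 6 h the summed B cell markers were 114 to 281 CPM in CKO and 89.2 to 136 CPM in CTL, and the CKO 6 h library highest in Irf5, 11.18 with 15.2 CPM, had the lowest sum, 114 CPM. At 0 h the CKO libraries 9.20 and 5.6, with 915 and 771 CPM of these markers, had 24.9 and 22.6 CPM of Irf5, and library 11.18, with 586 CPM of them, had 23.97 CPM. Among CTL libraries at 0 h, 5.6 had the most B cell markers, 952 CPM, with 18.9 CPM of Irf5, while 9.20 had the most Irf5, 22.9 CPM, with 585 CPM of the markers. The part of these markers in the Irf5 values was not tested.

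None of the remaining members passed the test at either time. Irf4 averaged 624 ± 347 CPM in CKO (SD, n = 3) and 700 ± 250 CPM in CTL (SD, n = 5) at 6 h, a log2 fold change of -0.21 ± 0.34, and 57.3 ± 23.4 CPM in CKO and 38.9 ± 6.96 CPM in CTL (SD, n = 6 each) at 0 h, a log2 fold change of 0.36 ± 0.30. Irf8 averaged 170 ± 88.9 CPM in CKO and 208 ± 49.3 CPM in CTL at 6 h (-0.29 ± 0.44), and 85.8 ± 35.1 CPM in CKO and 66.7 ± 42.1 CPM in CTL at 0 h (0.37 ± 0.40). Both thus had a negative value at 6 h and a positive one at 0 h, and neither value passed the test. Irf1, Irf2, Irf7 and Irf9 had log2 fold changes of -0.04 to 0.24 at 6 h and -0.11 to 0.04 at 0 h. The largest at 6 h were 0.24 ± 0.11 for Irf9 and 0.22 ± 0.12 for Irf2, with unadjusted edgeR p of 0.0502 and 0.0738. These values depend on the scaling too. The median at 6 h was -0.29 over all genes tested and 0.07 over genes with a mean of at least 1 CPM. A fit of only such genes gave 0.14 ± 0.08 for Irf9 and 0.12 ± 0.10 for Irf2. It gave 0.18 ± 0.10 for Irf3 and 0.63 ± 0.23 for Irf5, with none of these called. Without the shallow CTL 6 h library 4.24, the 6 h values were 0.75 ± 0.24 for Irf5, 0.21 ± 0.10 for Irf3 and -0.35 ± 0.35 for Irf4, with no member called.

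The genes around the family were read in 9 lists. Of all genes tested, 19.6% were called higher and 13.1% lower at 6 h in CKO, and 41.6% higher and 21.7% lower in CTL. Their median log2 fold changes were 0.12 in CKO and 0.31 in CTL. Over genes with a mean of at least 1 CPM, the medians were -0.12 in CKO and -0.20 in CTL. A fit of only such genes, 14446 in all, called 2359 higher and 2597 lower in CKO. In CTL that fit called 4014 higher and 3639 lower, so the background depends on genes with few counts. Each list is given beside the shares of all genes tested, and no list was tested as a set. Of 9 interferon ligand genes, 2 were counted often enough to be tested, Ifnk and Ifng, the gamma interferon of T cells. Ifng was called higher at 6 h, with log2 fold changes of 1.76 ± 0.44 in CKO (adjusted p = 0.00526) and 2.10 ± 0.39 in CTL (adjusted p = 1.67e-04). It averaged 26.01 ± 25.9 CPM at 6 h in CKO against 7.63 ± 3.53 CPM at 0 h. In CTL it averaged 34.5 ± 8.94 CPM at 6 h against 8.05 ± 2.40 CPM at 0 h. The CKO 6 h libraries ran from 10.8 to 55.9 CPM with a median of 11.4 CPM, against 3.36 to 12.2 CPM at 0 h. Only 1 CKO library at 6 h thus lay above the range at rest. The CTL range was 22.1 to 43.8 CPM at 6 h against 5.80 to 12.3 CPM at 0 h. Of 12 interferon receptors and JAK-STAT genes, 6 were higher and 2 lower in CKO and 5 higher and 4 lower in CTL, with a median log2 fold change of 0.41 in CKO and 0.28 in CTL. The 41.7% called higher in CTL was near the 41.6% of all genes, and the 6 of 12 in CKO stand beside 19.6% of all genes. Ifngr1, the ligand-binding chain of the interferon gamma receptor, was higher by 2.25 ± 0.15 in CKO and 2.24 ± 0.13 in CTL. Stat2, a partner of Irf9 in ISGF3, was higher by 1.19 ± 0.17 in CKO, and Il10rb, a chain shared with the lambda interferon receptor, changed by -0.75 ± 0.08 in CTL.

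Calls in the sensing arm upstream of Irf3, Irf5 and Irf7 were mostly lower. Of its 18 genes, 2 were higher and 6 lower in CKO and 1 was higher and 10 lower in CTL, with medians of -0.24 in CKO and -0.51 in CTL. Called lower were thus 33.3% in CKO and 55.6% in CTL, beside 13.1% and 21.7% of all genes. Irak1, a kinase of Toll-like receptor signalling, changed by -0.44 ± 0.10 in CKO and -0.56 ± 0.08 in CTL, and Slc15a4, a lysosomal transporter needed by endosomal Toll-like receptors, by -0.54 ± 0.13 and -0.62 ± 0.11. Ddx58, the RNA sensor RIG-I, changed by -0.65 ± 0.11 in CTL, and Tlr7, the receptor for single-stranded RNA, by -1.27 ± 0.32 in CKO. Of 8 proteins that bind or modify the family, 2 were higher and 3 lower in each genotype, with medians of 0.10 in CKO and -0.13 in CTL, so that 25.0% were higher and 37.5% lower in each. Def6, which binds Irf4 and restrains it in T cells, changed by -0.85 ± 0.18 in CKO and -1.26 ± 0.15 in CTL, at 130 ± 27.6 CPM at 6 h in CKO against 242 ± 22.5 CPM at 0 h, and 99.6 ± 25.0 CPM at 6 h in CTL against 236 ± 23.9 CPM at 0 h. Irf2bpl, a protein of the family that binds Irf2, changed by -1.20 ± 0.23 in CKO and -1.64 ± 0.19 in CTL.

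The route from the antigen receptor to Irf4 moved in both directions. Of 12 genes, 7 were higher and 3 lower in CKO and 6 higher and 4 lower in CTL, with medians of 0.46 in CKO and 0.26 in CTL. The 58.3% called higher in CKO stand beside 19.6% of all genes, and the 6 of 12 in CTL beside 41.6%. The NF-kB genes named by the rule were higher, Nfkb2 by 1.97 ± 0.22 in CKO and 1.80 ± 0.19 in CTL, and in CKO Rel by 1.41 ± 0.22 and Relb by 1.31 ± 0.17. Nfatc2, a calcium-activated factor, changed by -1.80 ± 0.18 in CTL. Of 11 DNA-binding partners of Irf4 and Irf8, 3 were higher and 4 lower in CKO and 1 was higher and 5 lower in CTL, with medians of -0.22 in CKO and -0.19 in CTL. Called lower were 36.4% in CKO and 45.5% in CTL, beside 13.1% and 21.7% of all genes. Batf, the principal partner of Irf4 in effector T cells, averaged 61.5 ± 30.3 CPM at 6 h in CKO against 63.7 ± 25.4 CPM at 0 h, and 44.6 ± 9.37 CPM at 6 h in CTL against 39.3 ± 7.63 CPM at 0 h. Spib, a B cell and plasmacytoid dendritic cell factor, changed by -2.58 ± 0.54 in CKO and -3.08 ± 0.45 in CTL, and Ikzf1, which is made throughout the lymphoid lineages, by -1.04 ± 0.15 in CTL. Batf2 was higher by 2.94 ± 0.53 in CKO and 2.62 ± 0.49 in CTL, but from a mean over all libraries of 0.284 CPM.

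**Figure D5:**
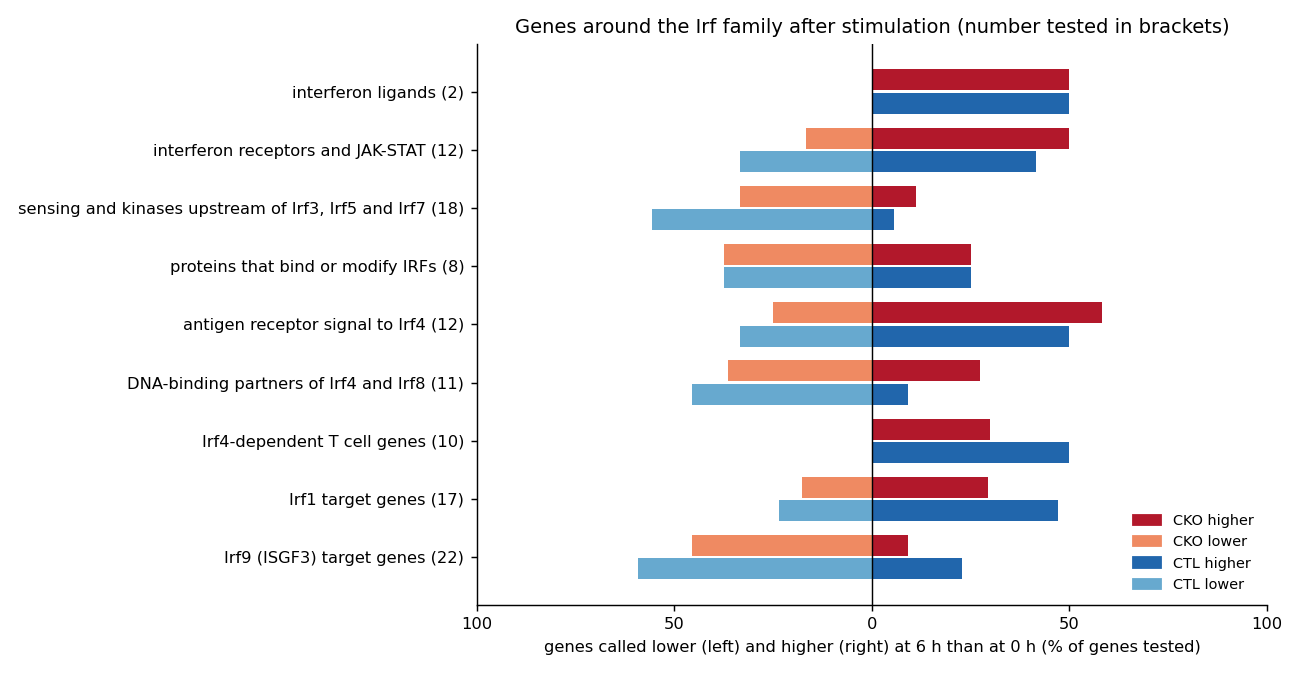
Share of the genes tested in each of 9 lists around the family that were called lower (left of 0) or higher (right of 0) at 6 h than at 0 h, in CKO and CTL; the number tested is in brackets. Of 22 Irf9 (ISGF3) target genes, 10 were lower and 2 higher in CKO and 13 lower and 5 higher in CTL.

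Genes known to depend on the members followed no single direction. Of 10 T cell genes that need Irf4, 3 were higher and 0 lower in CKO and 5 higher and 0 lower in CTL, with medians of 0.21 in CKO and 0.41 in CTL. The 3 of 10 higher in CKO stand beside 19.6% of all genes, and the 5 of 10 in CTL beside 41.6%. Il4 was higher by 1.45 ± 0.38 in CKO and 3.45 ± 0.35 in CTL, and Il10 by 1.52 ± 0.55 and 2.07 ± 0.48. Il17a was also higher, from near 0, and reached 2.19 to 12.2 CPM in CKO and 0.334 to 6.21 CPM in CTL at 6 h, against at most 0.183 CPM in CKO and 0.0734 CPM in CTL at 0 h. For the difference between the responses, 0 of these 10 genes were called, where 0.0% of all genes were. An unadjusted edgeR p under 0.05 was found for 1 of the 10, where 9.70% of all genes had one. Of 17 Irf1 target genes, 5 were higher and 3 lower in CKO and 8 higher and 4 lower in CTL, with medians of 0.31 in CKO and 0.32 in CTL. In CTL these shares, 47.1% higher and 23.5% lower, were near the 41.6% and 21.7% of all genes. Gbp2, a guanylate-binding protein of cell defence, rose most of those named, by 5.07 ± 0.21 in CKO and 4.80 ± 0.20 in CTL, followed by Cd274, the ligand PD-L1, at 2.44 ± 0.15 and 2.47 ± 0.14, and Socs1, the feedback inhibitor of JAK kinases, at 1.47 ± 0.21 and 2.17 ± 0.19.

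Calls among the ISGF3 targets, read by Irf9, were mostly lower, beside the values of Irf9 above. Of 22 genes, 2 were higher and 10 lower in CKO and 5 higher and 13 lower in CTL, with medians of -0.65 in CKO and -0.51 in CTL. Called lower were 45.5% in CKO and 59.1% in CTL, beside 13.1% and 21.7% of all genes. Mx1, an antiviral GTPase, was at 2.96 to 3.21 CPM in CKO and 1.29 to 2.69 CPM in CTL at 6 h, against 18.6 to 33.1 CPM in CKO and 16.2 to 30.4 CPM in CTL at 0 h. Its log2 fold change was -3.27 ± 0.24 in CKO and -3.45 ± 0.20 in CTL, and that of Mx2 was -2.52 ± 0.29 and -2.64 ± 0.23. Cmpk2, a nucleotide kinase induced by interferon, changed by -1.88 ± 0.21 and -1.89 ± 0.17.

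The genes whose pattern over the 20 libraries was most like that of each member were found by the root mean square (RMS) difference of centred log2 levels among 11977 genes. For Irf1 they included Birc3 (0.151) and Tnfrsf26 (0.152), where Irf1 itself varied by an RMS of 0.621 about its mean. For Irf4, with an RMS of 1.92 of its own, they were Lif (0.236), Nr4a3 (0.314) and Cdkn1a (0.437). Irf3 was most like Sharpin (0.0678) and Irf2 most like Rdh11 (0.0781). Irf5, at an RMS of 0.555, was most like Ltbr (0.213), Tspan2 (0.232) and Tlr2 (0.271), genes of 1.22 to 3.54 CPM. Irf8 had no close match, Fam83d being nearest at 0.444 against its own RMS of 0.932, and for Irf7, nearest to Trim12c and Xaf1 at 0.146, the distance was close to its own RMS of 0.186. All of these patterns share the same libraries and their depths, so they are descriptions over 20 libraries and 4 groups.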

How the data were processed

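The authors deposited 1 table of whole-number read counts per gene for 20 libraries, made from poly(A) RNA with a strand-marking kit per the labels' protocols. Read trimming, alignment to GRCm38 and gene counting used Trimmomatic 0.36, STAR 2.5.2b and Subread 1.5.2 with featureCounts, per the submitters' processing notes. Neither the annotation release nor the strand setting was found in those notes or the labels. Gene IDs were matched to GENCODE mouse release 21, which held 49056 of 49315.

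Counts were filtered with filterByExpr (at least 10 counts, total of at least 15), scaled by TMM and fitted with edgeR 4.0.16 (R 4.3.3), over all 4 groups with labelled sex as a covariate, followed by the quasi-likelihood test, two-sided, with Benjamini-Hochberg adjustment over 28082 genes. The fit was tested on simulated data. DESeq2 1.42.0 and limma-voom (limma 3.58.1) were alternatives, as were other filters, scalings, sex terms and left-out libraries. Exact permutation tests used log2(CPM + 0.5), two-sided. Levels per kilobase divide CPM by the union of annotated exons. Library numbers were checked for pairing by the correlation of deviations from group means, 0.236 to 0.703 in 5 pairs of CKO 0 h with CTL 0 h, 0.248 to 0.528 in 5 pairs of CTL 6 h with CTL 0 h and 0.0935 to 0.506 in 3 pairs of CKO 6 h with CKO 0 h. For CKO 0 h with CTL 0 h, libraries of different numbers gave -0.556 to 0.624, which overlaps the range of those that shared a number. The labels do not tie libraries to animals, so p-values measure the spread between libraries. The members and lists were chosen with earlier results of these data known. Named genes are all members and, per list, up to 3 called genes with the smallest adjusted p in the comparison described; Batf was added after its values were seen. Some genes that this rule names are not reported here. Likeness used genes with a mean of at least 1 CPM. RefSeq proteins were not used here.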

Additional observations from a re-analysis of the deposited data

Results flagged for a closer look

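In 1 of 24 combinations of a member and a group checked for a library far from the others, such a library was found. Irf2 stood at 162.6 CPM in CTL 0 h library 5.13, where the gap to the next library was 0.64 of the range of the 6 libraries. Chance gives such a gap in about 1 in 20 groups.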

How the results depend on the processing

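Of the 8 members over 5 comparisons, 1138 refits kept their sign and their side of the threshold, 39 kept their side but changed sign, all of values that were not called, 41 kept the direction but were no longer called, 14 became called and 0 of the called values changed sign. In CKO at 6 h against 0 h, where 5 members were called, 3 were called with no filter beyond a total of 1 count (3 higher, 0 lower) and 3 without CKO 0 h libraries 4.24 and 5.6 (2 higher, 1 lower); leaving out 1 library at a time gave 3 to 6. With the replicate block of library numbers and labelled sex, 4 members were called there (3 higher, 1 lower), and without the sex term 5, with Irf3 called at an adjusted p of 0.0247 and Irf9 not called at 0.0926. The replicate block changed no other member's call. The fit of only the groups compared gives no difference of responses. Counts of all genes called, against which members were read, moved further. At 6 h in CKO against CTL, 82 genes were called, but 16 without CKO 6 h library 5.6, 212 without CTL 6 h library 5.13, 8 with only the groups compared and 432 with DESeq2. At 0 h, 119 were called, but 49 without CTL 0 h library 4.29, 283 without CTL 6 h library 4.24 and 421 with DESeq2. In the responses, 9203 genes were called in CKO, but 4848 without CKO 6 h library 11.18 and 4956 with a mean of at least 1 CPM required, and 17791 in CTL, but 7653 under that filter, which tests fewer genes. For the small changes of Irf2, Irf7 and Irf9 after stimulation, the median over all genes in CTL was 0.31 on the log2 scale and 0.39 with RLE size factors, 0.20 without CKO 0 h library 5.6 and 0.45 without CKO 6 h library 5.13. Irf5, the least abundant member, has the fewest counts behind its values.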

Other observations

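The library number 5.6 carried different sex labels in CKO, female at 6 h and male at 0 h, with Xist at 813 and 1353 CPM. CTL 6 h library 4.24, labelled female, had 195 CPM of Xist, against 742 CPM in CTL 6 h library 10.28, also labelled female.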
